A study of Homo sapiens with 96 samples.

Results

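The genes of the human mitochondrial genome were followed through RNA sequencing libraries of A549, an established line of human lung adenocarcinoma cells. They were taken as every row whose symbol starts with MT-, which gave 13 mRNA genes, 2 ribosomal RNA (rRNA) genes and 22 transfer RNA (tRNA) genes. Of these, 31 had at least 1 count in the 96 libraries (all 13 mRNAs, both rRNAs and 16 tRNAs), among 43383 genes with a count in a table of 60675. The tRNA genes MT-TW, MT-TG, MT-TR, MT-TH, MT-TT and MT-TP had none. The rule reads the gene symbol alone.

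The libraries come from 2 batches, each with its own vehicle group, and every group holds 3 libraries. In batch 1 (21 libraries, 7 groups) the cells received the vehicle or a water or ethanol extract of Paeoniae Radix, the peony root of herbal medicine, at 500, 100 or 20 µg/mL. In batch 2 (75 libraries, 25 groups) they received the vehicle or 1 of 8 ingredients, Albiflorin, Benzoic acid, Catechin, Gallic acid, Hederagenin, Paeonol, Paeoniflorin or Oleanolic acid, at 10, 2 or 0.4 µM. All groups are the same unmodified line, so they show 1 genetic background. The length of exposure and the kind of vehicle were not given in the sources used here. Nothing there says that replicates were separate cultures, so a p-value here sets a difference against a spread between libraries that may be only technical. The study was named for the Aurora B pathway, and the comparisons asked here are what each extract and ingredient did to the mitochondrial transcripts. Each library also carries a 3-digit code in its labels. The first digit was 1 in both vehicle groups, 3 in the extracts, 6 for Albiflorin and Benzoic acid, 7 for Catechin and Gallic acid, 8 for Hederagenin and Paeonol, and 9 for Paeoniflorin and Oleanolic acid. The labels do not say what it stands for, and no digit is shared by treated and vehicle libraries, so the digit and treatment against vehicle cannot be told apart.

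Mitochondria keep a small circular genome that is transcribed on both strands into long precursors. The tRNAs lie between most of the other genes and are cut out, which frees the mRNAs and rRNAs. The mRNAs encode core subunits of the respiratory chain: NADH dehydrogenase (complex I, the MT-ND genes), cytochrome b of complex III (MT-CYB), cytochrome c oxidase (complex IV, the MT-CO genes) and ATP synthase (complex V, the MT-ATP genes). The rRNAs MT-RNR1 and MT-RNR2 form the cores of the small and large subunits of the mitochondrial ribosome. All other proteins of these complexes, and those that copy, transcribe, process and translate the mitochondrial genome, come from nuclear genes.

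Sequence features that decide where a read of these genes can be placed are shown first, since they bear on how counts fall to a gene. All are from the GENCODE v29 transcripts (GRCh38, mitochondrial chromosome, chrM) and are written 5′ to 3′. Neighbouring mRNA genes share bases in 3 places. MT-ATP6 and MT-CO3 share a single base, at position 9207. In the first 2 sequences the capitals mark the longer shared stretches, 46 bases for MT-ATP8 and MT-ATP6 and 7 bases for MT-ND4L and MT-ND4.
MT-ATP8 end into MT-ATP6, chrM:8515-8584, plus strand: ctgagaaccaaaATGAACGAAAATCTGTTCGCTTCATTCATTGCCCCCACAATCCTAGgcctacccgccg
MT-ND4L end into MT-ND4, chrM:10748-10778, plus strand: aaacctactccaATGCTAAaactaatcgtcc
In 6 of the 13 mRNAs the gene ends inside a codon, which is known to be completed to a stop codon only by the poly(A) tail added to the RNA. Their last 20 bases are shown with the bases past the last whole codon in capitals.
MT-ND1, chrM:4243-4262, plus strand: agcattccccctcaaaccTA
MT-ND2, chrM:5492-5511, plus strand: ttttatactaataatcttaT
MT-CO3, chrM:9971-9990, plus strand: catctattgatgagggtctT
MT-ND3, chrM:10385-10404, plus strand: aggattagactgaaccgaaT
MT-ND4, chrM:12118-12137, plus strand: cattaccgggttttcctctT
MT-CYB, chrM:15868-15887, plus strand: caaaatactcaaatgggccT
The tRNAs are nearly absent from these libraries, and the 2 with the most counts, which both lie on the minus strand, are shown whole with no part singled out.
MT-TA, chrM:5587-5655, minus strand: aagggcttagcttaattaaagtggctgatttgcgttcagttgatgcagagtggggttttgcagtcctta
MT-TS1, chrM:7446-7514, minus strand: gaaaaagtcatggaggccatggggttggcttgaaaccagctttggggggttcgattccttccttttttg

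Libraries held 15.7 to 35.6 M counts (M for mega), so the 95% Wilson interval of a mitochondrial share is at most 0.017 percentage points to either side. Such intervals cover counting error only, and the spread between libraries was far wider. Of the epithelial markers, the keratins KRT8 and KRT18 were abundant, at 1360 to 6530 and 1250 to 5930 counts-per-million (CPM). KRT19 was at 17.7 to 76.1 CPM, CDH1 at 22.5 to 45.9 and EPCAM at 0.807 to 13.2. The immune markers PTPRC, CD3E and LYZ stayed at or below 0.255 CPM, while CD14 was at 2.13 to 7.23 CPM. The endothelial markers PECAM1, VWF and CDH5 stayed at or below 0.32 CPM. The fibroblast collagen gene COL1A2 was at or below 0.899 CPM in all but 4 libraries and reached 595 CPM in those (Gallic acid 2 µM and 0.4 µM replicate 1, Catechin 10 µM and 2 µM replicate 2). Of the other fibroblast markers, COL1A1 reached 535 CPM there against at most 161 elsewhere, COL3A1 65.7 against 30.5 and LUM 11.8 against 0.844, DCN and POSTN stayed at or below 0.961 CPM in every library, and the highest values of PDGFRA, PDGFRB, THY1 and FBN1 lay in other libraries. The 10 fibroblast markers summed to 1060 to 1260 CPM of nuclear counts in those 4 libraries and to at most 222 in the rest. The same 4 libraries held 10000 to 11800 CPM of nuclear counts in a list of 7 short or unpolyadenylated nuclear RNAs, against at most 85.4 in the rest. Leaving the 4 out changed no call on the share of counts, and any part they had in the values of code digit 7 was not tested.

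The 13 mRNAs held 225857607 counts over all libraries and the 2 rRNAs 58011892, against 3317 for all tRNAs. The tRNA counts were uneven between strands. The 8 tRNA genes of the minus strand held 3218 counts, with 1269 for MT-TA (alanine), 747 for MT-TS1 (serine), 567 for MT-TQ (glutamine), 236 for MT-TY (tyrosine), 214 for MT-TN (asparagine), 146 for MT-TE (glutamate) and 39 for MT-TC (cysteine). The 14 genes of the plus strand together held 99 counts, of which 48 belonged to MT-TF (phenylalanine). A tRNA lies inside the precursor of its neighbours, so a count cannot be told apart here from a read of an uncut precursor. Only MT-TA was abundant enough to be tested in batch 1.

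Per length of gene, the complex IV mRNA MT-CO2 stood highest in both vehicle groups and the rRNA MT-RNR1 lowest. MT-CO2 (chrM:7586-8269) measured 26900, 21800 and 30000 CPM per kilobase in the vehicle libraries of batch 1, a mean of 26200 ± 4100 (SD, n = 3), and 20100, 19700 and 19000 in those of batch 2. It was followed in batch 1 by MT-CO3 at 23300 ± 4000 (SD, n = 3), MT-CO1 at 22600 ± 2800, MT-ATP6 at 21500, MT-ND4 at 20800 and MT-RNR2 at 19700 CPM per kilobase. The range of each of these over the libraries overlapped that of the next in order. Within every library, MT-CO2 stood above MT-CO3, MT-CO1 above MT-ATP6 and MT-ATP6 above MT-ND4. MT-CO3 and MT-CO1, and MT-ND4 and MT-RNR2, changed places in replicate 2, so their order is not resolved by 3 libraries. The order was not tested. A middle level was held by MT-ATP8 at 12700, MT-ND1 at 11800, MT-ND2 at 11400 and MT-CYB at 9020 CPM per kilobase. The lowest mRNAs were MT-ND4L at 6390, MT-ND6 at 5340, MT-ND3 at 5180 and MT-ND5 at 4810 CPM per kilobase, all of them subunits of complex I. MT-ND6 (chrM:14149-14673) is the only one of the mRNAs on the minus strand. MT-RNR1 (chrM:648-1601) reached 1740, 1640 and 2090 CPM per kilobase, although it lies directly upstream of the far more abundant MT-RNR2 (chrM:1671-3229). In batch 2 MT-RNR2 ranked next to MT-CO2, at 17200 CPM per kilobase, and MT-RNR1 was again last at 1480 ± 120 (SD, n = 3).

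**Figure D1:**
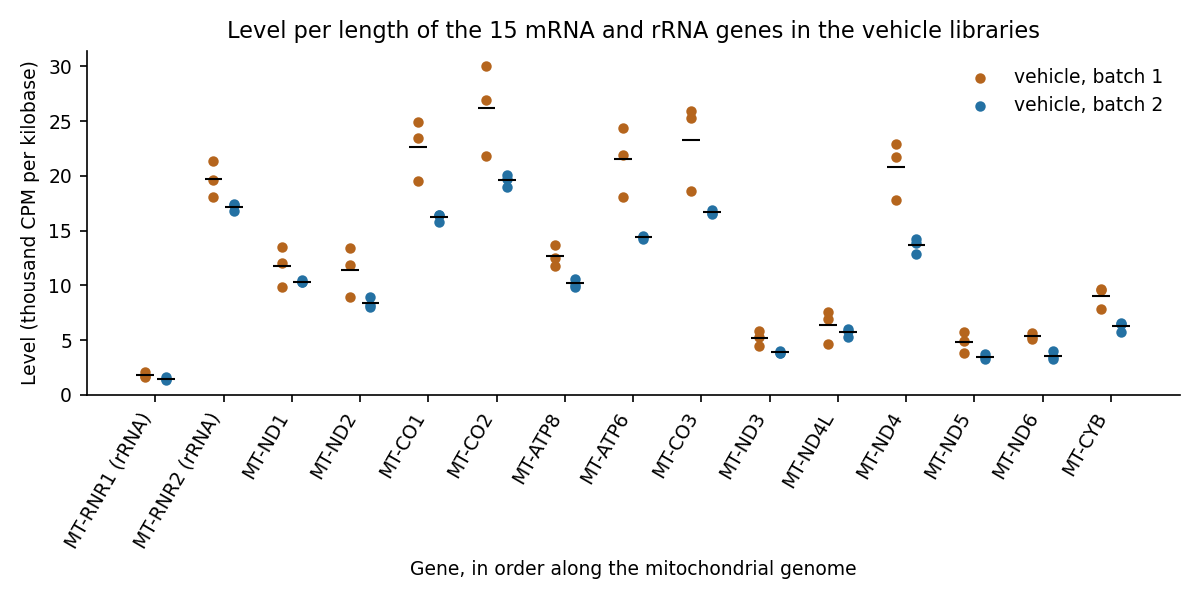
Level of each mitochondrial mRNA and rRNA gene per kilobase of gene (vertical axis, CPM per kilobase) in the 3 vehicle libraries of each batch, with genes in their order along the genome and bars at the mean. MT-CO2 has the highest mean in both batches, 26200 in batch 1, and MT-RNR1 the lowest, 1820 in batch 1.

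As parts of all mitochondrial counts in the vehicle libraries of batch 1, complex IV mRNAs made up 35.8% ± 0.58 (SD, n = 3), complex I mRNAs 33.8% ± 0.66, the rRNAs 16.5% ± 1.0, complex V mRNAs 8.71% ± 0.04 and MT-CYB 5.2% ± 0.18. In batch 2 the same parts were 34.9%, 33%, 19.1%, 8.07% and 4.83%. The sharing of bases seen in the first sequences above is one reason to read MT-ATP8 and MT-ND4L with care, because the counting program divides reads that fit both genes. MT-ATP8 held 13.2 to 19.8 counts per 100 of MT-ATP6 over the libraries of batch 1 but 17.7 to 53.7 over those of batch 2. MT-ND4L held 5.65 to 10.4 counts per 100 of MT-ND4 in batch 1 and 5.32 to 55.2 in batch 2. Pseudogene copies of mitochondrial sequence in the nuclear genome also compete for reads. The copy MTATP6P1 carried 3364871 counts, 13.4 to 19 per 100 of MT-ATP6 in batch 1 and 13.6 to 52 in batch 2. The 17 copies listed came to 1.01% to 2.02% of the mitochondrial counts in a library.

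Of all counts in a library, the mitochondrial genes took between 0.822% and 22.1%, with a median of 13.9% over the 96 libraries. In batch 1 the vehicle libraries stood at 20.5%, 16.9% and 22.1%. The water extract gave 14.7%, 14.5% and 16.8% at 500 µg/mL, 15.3%, 15.2% and 16.8% at 100 µg/mL, and 14.2%, 14.9% and 16.9% at 20 µg/mL. The ethanol extract gave 15.9%, 16.9% and 17.7% at 500 µg/mL, 15.6%, 16.1% and 17.2% at 100 µg/mL, and 14.5%, 16.3% and 18.6% at 20 µg/mL. The vehicle libraries were the highest as a group, and all 9 water extract libraries lay below the lowest of them. Of the 9 ethanol extract libraries 5 did, so 14 of 18 treated libraries were below it in all. Replicate 3 had the highest share in 7 of 7 groups.

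**Figure D2:**
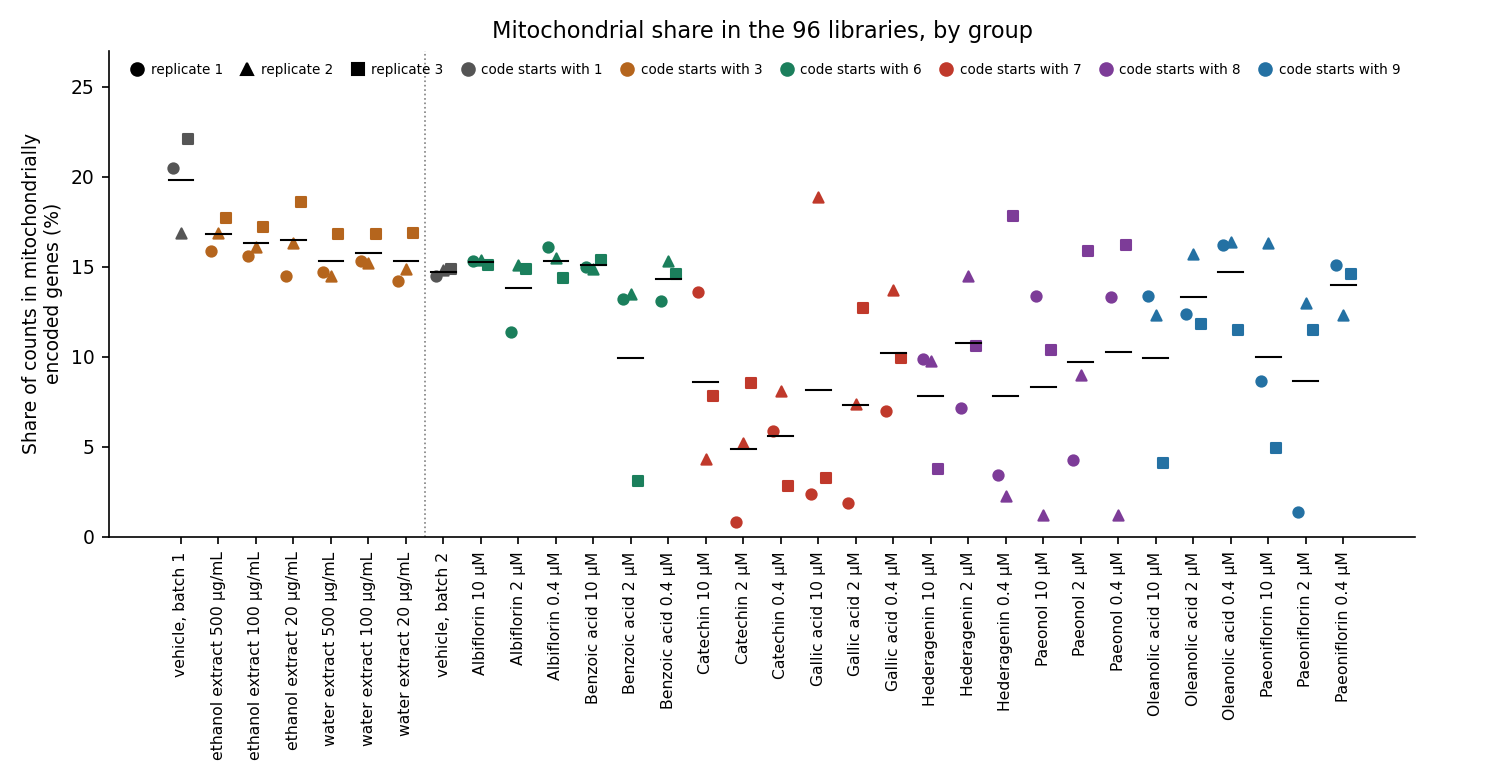
Share of all counts in mitochondrially encoded genes (vertical axis, percent) in each of the 96 libraries, by group, with the libraries of each group in one column. Shares lie between 14.2% and 22.1% in batch 1, while in batch 2 many groups hold libraries far apart, such as the 3 of Paeonol at 0.4 µM at 13.3%, 1.22% and 16.2%.

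Over its 3 doses the water extract had a lower mitochondrial share than the vehicle, 15.5% ± 1.0 (SD, n = 9) against 19.8% ± 2.6 (SD, n = 3), a log2 difference of -0.35. A 2-sided exact permutation test gave p = 0.00455, the smallest this design allows, and an adjusted p of 0.0349 over 21 tests of the share. As a ratio to the nuclear-encoded respiratory chain genes the log2 difference was -0.44 and missed the threshold (exact permutation p = 0.0182, adjusted p = 0.0691). With the replicate number as a block it was -0.35 and missed it too, with an exact permutation p of 0.0156, the smallest that block allows, and an adjusted p of 0.0684. With a replicate number left out of both groups the difference lay between -0.43 and -0.29. Those 6 against 2 libraries have 28 arrangements and an exact permutation p of at least 0.0357, which was reached each time and could not pass after adjustment (adjusted p 0.127 to 0.272). For the ethanol extract the share was 16.5% ± 1.2 (SD, n = 9), a log2 difference of -0.26 from the vehicle that missed the threshold (exact permutation p = 0.0227, adjusted p = 0.084). At matched doses the ethanol extract differed from the water extract by 0.09 on the log2 scale, with a 95% interval from -0.01 to 0.20 and an adjusted p of 0.191 by exact permutation. In bulk libraries, fewer mitochondrial transcripts per cell and a change in the other RNA of the cell cannot be told apart from a share.

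Gene by gene, mRNAs of all 4 encoded complexes were lower with the water extract at 500 µg/mL than with the vehicle. In edgeR's quasi-likelihood test with Benjamini-Hochberg adjustment over 16854 genes, 13 of the 16 mitochondrial genes tested fell and none rose, where 11.4% of all genes fell (21.1% changed in either direction). The 3 that missed the threshold were MT-RNR1, MT-ND4L and MT-TA. The median log2 difference of the mitochondrial genes was -0.51, against 0.01 for all genes.

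Complex I supplied 6 of the genes that fell with the water extract. MT-ND4 (chrM:10760-12137) was at 31700, 25200 and 34700 CPM in the vehicle and 19900, 18400 and 22600 CPM with the extract, a log2 difference of -0.59 ± 0.11 (SE, n = 3 a group, edgeR adjusted p = 0.000405). The treated libraries all lay below the vehicle ones. MT-ND6, from the other strand, was at 2850, 2850 and 3250 CPM in the vehicle and 1810, 1730 and 2330 CPM with the extract, a log2 difference of -0.61 ± 0.12 (edgeR adjusted p = 0.00116), again without overlap. MT-ND1 and MT-ND2 each differed by -0.59, MT-ND3 by -0.52 and MT-ND5 by -0.38 on the log2 scale. The call on MT-ND5 (edgeR adjusted p = 0.0401) was lost in 6 of 11 alternatives, DESeq2 among them, with adjusted p up to 0.268. MT-ND4L (chrM:10470-10766) was the exception: its libraries read 2390, 1430 and 2250 CPM in the vehicle and 1890, 1830 and 2160 CPM with the extract, so the groups overlapped and the log2 difference was -0.05 (edgeR adjusted p = 0.831). MT-ND4L shares bases with MT-ND4 and reads that fit both genes were divided, and the part of this in its value was not tested.

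The genes of the other complexes moved by like amounts. MT-CO1 (chrM:5904-7445), which carries the catalytic centre of cytochrome c oxidase, was at 38500, 30900 and 42100 CPM in the vehicle and 24800, 25000 and 28700 CPM with the extract. Its log2 difference was -0.51 ± 0.10 (SE, edgeR adjusted p = 0.000988), and MT-CO2 and MT-CO3 followed with -0.53 and -0.48. MT-CYB differed by -0.50, MT-ATP6 by -0.60 and MT-ATP8 by -0.71 on the log2 scale. Of the rRNAs, MT-RNR2 was at 32500, 29100 and 36700 CPM in the vehicle and 24800, 25800 and 27000 CPM with the extract, a log2 difference of -0.34 ± 0.08 (SE, edgeR adjusted p = 0.00552). MT-RNR1 differed by -0.33 and missed the threshold (edgeR adjusted p = 0.102). Of these 16 genes, 10 did not overlap between treated and vehicle libraries, all of them lower, where 16.4% of all genes lay wholly below the vehicle.

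The lower doses of the water extract gave nearly the same differences. At 100 µg/mL 12 of 16 mitochondrial genes fell, against 6.98% of all genes (12.6% in either direction), and at 20 µg/mL 13 of 16 fell, against 5.25% of all genes (9.51% in either direction). MT-ND6 differed from the vehicle by -0.64 and -0.67 at these doses and MT-ND4 by -0.50 and -0.60. Between 500 and 20 µg/mL itself, a comparison added after seeing the data, edgeR called 0 of 16 genes, 0 also passed in DESeq2, and 2.05% of all genes changed. Without the vehicle library of replicate 3 the counts against vehicle were 6 at 100 µg/mL and 7 at 20 µg/mL, where 6.68% and 4.44% of all genes changed. Leaving out replicate 1 or replicate 2 of the extract gave 7 and 7 at 100 µg/mL, where 7.3% and 5.83% of all genes changed. At 20 µg/mL the same steps gave 6 and 8, where 4.08% and 4.16% changed.

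With the ethanol extract at 500 µg/mL the mitochondrial mRNAs fell while the rRNAs rose. In the same test 12 of 16 mitochondrial genes fell, all of them mRNAs, and 2 rose, both rRNAs, where 34.4% of all genes fell and 34.7% rose (69.1% changed). MT-ND4L and MT-TA were not called. The median log2 difference of the mitochondrial genes was -0.47, against 0.00 for all genes.

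The largest falls were in genes of complexes V, I and IV. MT-ATP8 (chrM:8366-8572), a small subunit of ATP synthase, was at 3010, 2510 and 2840 CPM in the vehicle and 1320, 1460 and 1590 CPM with the extract, a log2 difference of -0.94 ± 0.16 (SE, n = 3 a group, edgeR adjusted p = 1.43e-05). Reads that fit both this gene and the overlapping MT-ATP6 were divided, and the part of this in the difference was not tested. MT-CO3 (chrM:9207-9990) was at 21100, 15000 and 22300 CPM in the vehicle and 10000, 10900 and 11200 CPM with the extract, a log2 difference of -0.86 ± 0.11 (edgeR adjusted p = 2.86e-07). MT-ND2 was at 13100, 9570 and 15400 CPM in the vehicle and 6160, 7020 and 7480 CPM with the extract, a log2 difference of -0.88 ± 0.14 (edgeR adjusted p = 8.17e-06). In none of the 3 did the groups overlap, and 9 of the 16 genes lay wholly below the vehicle, where 35.4% of all genes did. MT-ND6 differed by -0.80 and MT-ND3 by -0.77 on the log2 scale. At the other end stood MT-CO1 with -0.29 ± 0.10 and MT-CYB with -0.26 ± 0.10, whose edgeR adjusted p-values were 0.0138 and 0.032. The call on MT-CO1 was lost without replicate 3 of the vehicle or replicate 1 of the extract (edgeR adjusted p up to 0.106). That on MT-CYB was lost without replicate 1 or replicate 3 of the vehicle, without replicate 1 of the extract, and in DESeq2 (adjusted p up to 0.157). For MT-CYB 2 treated libraries and for MT-CO1 1 lay above the lowest vehicle library.

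The small-subunit rRNA MT-RNR1 was at 1760, 1610 and 2190 CPM in the vehicle and 2180, 2600 and 2770 CPM with the ethanol extract. The groups overlapped by the lowest treated library, and the log2 difference was 0.44 ± 0.14 (SE, n = 3 a group, edgeR adjusted p = 0.00745). The large-subunit rRNA MT-RNR2 was at 34600, 38000 and 39900 CPM with the extract, beside the 3 vehicle values given above, a log2 difference of 0.20 ± 0.08 (edgeR adjusted p = 0.0424). That call on MT-RNR2 was lost in 6 of 11 alternatives, DESeq2 among them, with adjusted p up to 0.233. The rRNAs made up 23.8%, 24.3% and 24.3% of the mitochondrial counts in these libraries, above every other library of batch 1, in which they made up 15.7% to 20.3%.

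The ethanol and water extracts differed directly at 500 µg/mL in 5 of the 16 mitochondrial genes, where 66.1% of all genes changed. With the ethanol extract MT-RNR1 was higher by 0.77 ± 0.14 and MT-RNR2 by 0.54 ± 0.08 on the log2 scale (SE, edgeR adjusted p = 4.19e-05 and 5.75e-06), and MT-CYB was higher by 0.24. MT-CO3 was lower, with a log2 difference of -0.39 ± 0.11 (edgeR adjusted p = 0.00356), and so was MT-ND3, with -0.25. Other fits moved this count both ways. It was 3 without replicate 2 of the ethanol extract, where 62.4% of all genes changed. In DESeq2 it was 3, with the replicate number as a block 10, in a fit of only the groups compared 10 and with no filter on low counts 13. The share of all genes called in these last fits is not given here. At 100 µg/mL edgeR and DESeq2 each called 0 mitochondrial genes between the extracts, where 1.77% of all genes changed, and MT-RNR2 alone had an unadjusted edgeR p under 0.05 (0.0395). At 20 µg/mL both tools again called 0, no mitochondrial gene had an unadjusted p under 0.05, and 0% of all genes changed.

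At the lower doses of the ethanol extract the rRNAs did not move with the test, and fewer mRNAs passed it. At 100 µg/mL 11 mRNAs fell and 0 genes rose, where 9.23% of all genes fell (17.5% in either direction), and at 20 µg/mL 7 mRNAs fell, where 3.82% fell (7.45% in either direction). MT-CO3 differed from the vehicle by -0.34 at 100 µg/mL and by -0.31 at 20 µg/mL, and MT-RNR1 by -0.01 and 0.05. Between 500 and 20 µg/mL, a comparison added after seeing the data, 6 of 16 genes differed, where 67.5% of all genes did. MT-RNR1 was higher at 500 µg/mL by 0.39 ± 0.14 and MT-RNR2 by 0.36 ± 0.08 (SE, log2, edgeR adjusted p = 0.0158 and 0.000625). MT-CO3 was lower there, with a log2 difference of -0.56 ± 0.11 (edgeR adjusted p = 0.000106), as were MT-ND2 with -0.51, MT-ATP8 with -0.37 and MT-ND3 with -0.36. The counts against vehicle at the 2 lower doses rested on few libraries. At 100 µg/mL the number of genes that fell was 7 without replicate 1 of the vehicle, 6 without its replicate 3, and 7 without replicate 1 or replicate 2 of the extract. In these fits 12.8%, 12.2%, 11.1% and 13.1% of all genes changed, in that order. At 20 µg/mL the number that fell was 13 without replicate 2 of the vehicle, 1 without its replicate 3, 0 without replicate 1 of the extract and 12 without its replicate 3. There 7.34%, 4.41%, 3.51% and 8.28% of all genes changed.

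**Figure D3:**
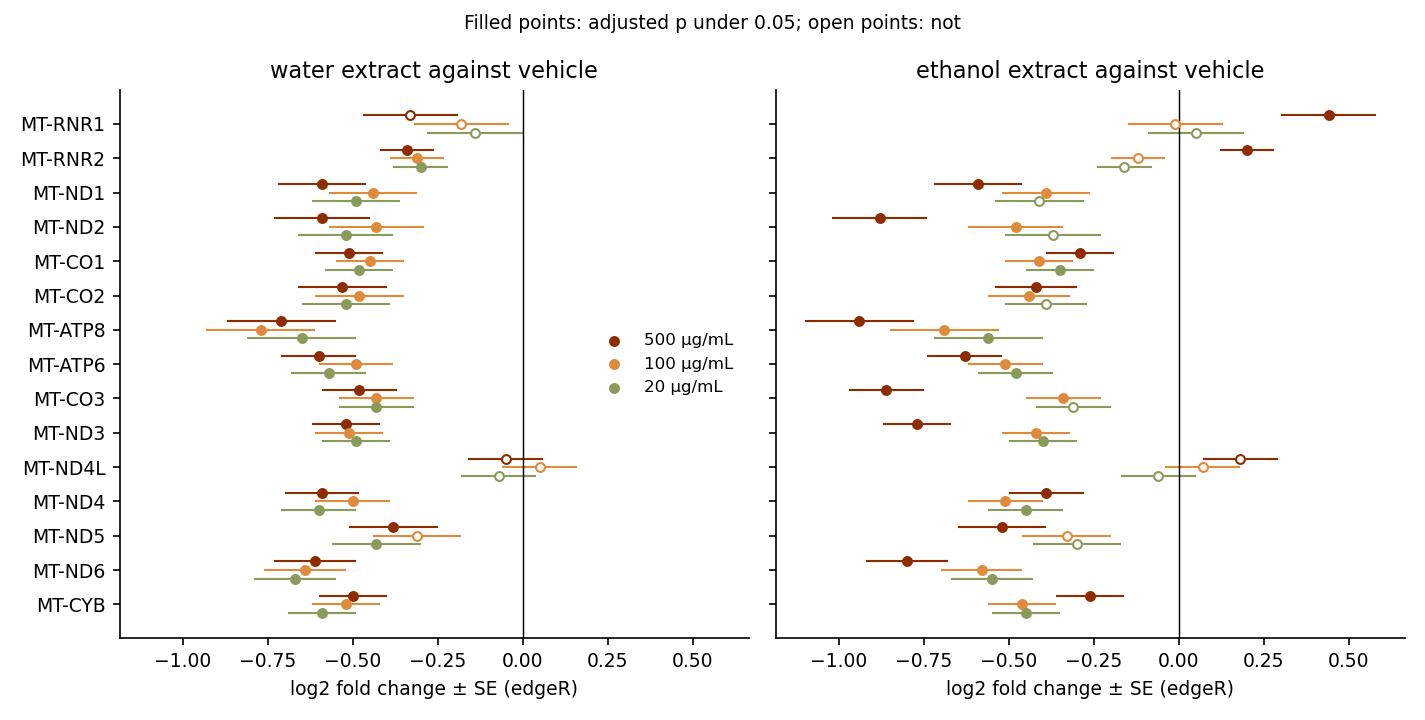
Log2 fold change against the vehicle of batch 1 with its standard error (horizontal axis, edgeR) for each mitochondrial mRNA and rRNA (vertical axis), for the water and the ethanol extract at 3 doses. Filled points passed an adjusted p of 0.05. With the ethanol extract at 500 µg/mL the points run from -0.94 for MT-ATP8 to 0.44 for MT-RNR1, while MT-ND4L stays near 0 at each dose of both extracts.

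Among nuclear genes that serve the mitochondrial genome, some rose and some fell with the water extract at 500 µg/mL, where 11.4% of all genes fell and 21.1% changed. Among 19 genes for mitochondrial RNA processing, polyadenylation and decay 0 rose and 2 fell. SLIRP, which with LRPPRC holds mitochondrial mRNAs in a stable complex, was at 38.8 CPM against 53.4 in the vehicle, a log2 difference of -0.46 ± 0.06 (SE, edgeR adjusted p = 6.75e-06). Among 7 transcription genes 1 rose and 1 fell, and among 15 genes for maintenance of the mitochondrial genome 4 rose and 1 fell. POLG, the mitochondrial DNA polymerase, differed by 0.22 and TOP3A by 0.23, while DGUOK, which salvages nucleosides for the genome, differed by -0.18. Of 12 translation factors 0 rose and 1 fell, MTRF1L by -0.19. Of 48 proteins of the mitochondrial ribosome 2 rose and 12 fell, with MRPS15 at -0.30 and MRPS26 at 0.36. Of 38 nuclear-encoded subunits of the respiratory chain 1 rose and 8 fell, with UQCRB of complex III at -0.50 ± 0.05 (SE, edgeR adjusted p = 4.73e-07) and COX6A1 of complex IV at -0.41. In these last 2 lists the part that fell was larger than among all genes, which is given as a description with no test of the lists. The median log2 difference of those 38 was 0.03, beside -0.53 for the 13 mRNAs from the mitochondrial genome and 0.01 for all genes.

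Many more of these nuclear genes changed with the ethanol extract at 500 µg/mL, where 34.4% of all genes fell and 34.7% rose (69.1% changed). Of the 19 RNA processing genes 17 fell and 1 rose. PNPT1, part of the complex that degrades mitochondrial RNA, was at 25.1 CPM against 63.1 in the vehicle, a log2 difference of -1.33 ± 0.05 (SE, edgeR adjusted p = 2.2e-16). FASTKD2, which binds MT-RNR2 and serves the assembly of the large ribosomal subunit, differed by -1.18 ± 0.06, and LRPPRC by 0.16 ± 0.04. Of 7 transcription genes 5 fell and 1 rose: TFB2M, which opens the promoters, differed by -0.50, MRPL12 by -0.91 and POLRMT, the mitochondrial RNA polymerase, by 0.12. Of the 15 maintenance genes 7 fell and 3 rose, with PRIMPOL at -1.19, DGUOK at -0.52 and RRM2B, a ribonucleotide reductase subunit, at 0.48. Of 12 translation factors 9 fell, GFM2 by -1.18 and TUFM, the elongation factor, by -0.51. Of 48 mitochondrial ribosomal proteins 36 fell and 1 rose, with MRPL4 at -1.01 and MRPL10 at 0.48. Of the 38 nuclear-encoded respiratory chain subunits 28 fell and 1 rose, with ATP5MC1 of complex V at -1.0, NDUFB10 of complex I at -0.85 and COX4I1 of complex IV at 0.30. Their median log2 difference was -0.28, beside -0.59 for the 13 mitochondrial mRNAs and 0.00 for all genes. Of the 8 tested regulators of mitochondrial biogenesis 6 fell and 1 rose, with GABPB1 at -0.47 and the nuclear receptor ESRRA at 0.30.

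Other RNA without a usual tail was also followed in the extract libraries, because the kinds of RNA a library captures set the shares within it. The 7 short or unpolyadenylated nuclear RNAs came to a sum of 3.92 to 8.11 CPM of nuclear counts with the vehicle and of 11.4 to 71.1 in the 18 extract libraries. RN7SL1, the RNA of the signal recognition particle, rose from 2.46 to 11.6 CPM with the water extract at 500 µg/mL, a log2 difference of 2.26 ± 0.66 (SE, edgeR adjusted p = 0.0168). With the ethanol extract at that dose it rose to 9.03 CPM. Over the 21 libraries of batch 1 this sum went with a lower mitochondrial share (Pearson's r = -0.51, permutation p = 0.0203, adjusted p = 0.0415, and Spearman's rho = -0.55, permutation p = 0.0113, adjusted p = 0.0249), and r was -0.35 without the 2 libraries farthest from the median share. The permutation ignored the groups. Vehicle libraries had the lowest sums and included the highest shares, 20.5% and 22.1%, so the relation cannot be told apart from the difference between vehicle and extracts. The replication-dependent histones, whose mRNAs also lack the usual tail, summed to 44.3, 45.6 and 43.6 CPM of nuclear counts in the vehicle and to 43.7, 44.9 and 44.3 with the water extract at 500 µg/mL, so the groups overlapped. Of the 13 histones tested 0 were called, where 21.1% of all genes changed. With the ethanol extract at that dose the histones summed to 69.4, 69.8 and 69.5, above every vehicle library. There 3 of the 13 rose and 3 fell, where 34.7% of all genes rose and 34.4% fell. The part of either kind of RNA in the lower mitochondrial share with the extracts was not tested.

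Batch 2 differed from batch 1 in how far replicates lay apart. The vehicle libraries stood at 14.5%, 14.8% and 14.9%, close together. Against that, 29 of 75 libraries were below 10% and 16 below 5%, none of them vehicle libraries. The pair of ingredients with code digit 6 stayed nearest to the vehicle, with 1 of 18 libraries below 10%. Of 18 libraries each, 14 with digit 7, 10 with digit 8 and 4 with digit 9 were below 10%. The standard deviation of the log2 share within a group, pooled over groups, was 0.02 in the vehicle, 0.51 with digit 6, 1.25 with digit 7, 1.42 with digit 8 and 0.92 with digit 9, beside 0.11 in the extracts and 0.20 in the vehicle of batch 1.

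Single groups show this spread. Catechin at 2 µM gave 0.822%, 5.23% and 8.54%, the first of which was the lowest of all 96 libraries. Gallic acid at 10 µM gave 2.4%, 18.9% and 3.25%, so that replicate 2 was the highest library of batch 2 and its partners were among the lowest. Paeonol gave 13.4%, 1.23% and 10.4% at 10 µM, 4.29%, 9.0% and 15.9% at 2 µM, and 13.3%, 1.22% and 16.2% at 0.4 µM. Hederagenin gave 9.89%, 9.78% and 3.78% at 10 µM and 3.44%, 2.29% and 17.8% at 0.4 µM. Paeoniflorin at 2 µM gave 1.39%, 13% and 11.5%. The low libraries were spread over replicate numbers and doses in these groups. Albiflorin held close at 10 µM, with 15.3%, 15.4% and 15.1%, and Benzoic acid there gave 15%, 14.9% and 15.4%.

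Mean shares over 3 doses were 14.8% ± 1.4 (SD, n = 9) with Albiflorin, 13.1% ± 3.9 with Benzoic acid, 12.6% ± 3.7 with Oleanolic acid, 10.9% ± 5.0 with Paeoniflorin, 9.43% ± 5.9 with Paeonol, 8.8% ± 5.2 with Hederagenin, 8.57% ± 5.8 with Gallic acid and 6.34% ± 3.7 with Catechin. None of the 4 code digits differed from the vehicle past the threshold: the log2 differences were -0.14 for digit 6, -1.34 for digit 7, -1.08 for digit 8 and -0.51 for digit 9, with adjusted p-values of 0.59, 0.176, 0.215 and 0.329 in 2-sided exact permutation tests. Of 18 libraries each, 6, 17, 14 and 12 lay below every vehicle library, in the order of the digits, and 9, 1, 3 and 5 above every one. With 3 vehicle libraries and so wide a spread, a missed threshold does not show that the shares were equal. Between digits 2 of 6 differences passed. The 18 libraries with digit 6 had a share of 14% ± 2.9 (SD), against 7.46% ± 4.9 with digit 7, a log2 difference of 1.20 (permutation p = 0.00022, adjusted p = 0.00462). Against digit 8, at 9.11% ± 5.4, the log2 difference was 0.94 (permutation p = 0.00498, adjusted p = 0.0349). Without replicate 1 the difference between digits 6 and 7 fell to 0.82 and missed the threshold. Between digits 6 and 8 it was 0.96 without replicate 1 and 0.46 without replicate 2, and neither passed. The digit goes with a pair of ingredients, so what the digit marks and what the ingredients do cannot be told apart.

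At matched doses 7 pairs of ingredients were compared for their mitochondrial share, of which 0 passed after adjustment. Within code digits, Albiflorin and Benzoic acid differed by 0.28 on the log2 scale (95% interval -0.04 to 0.79), Catechin and Gallic acid by -0.38 (-1.62 to 0.84), Hederagenin and Paeonol by 0.12 (-1.21 to 1.47) and Paeoniflorin and Oleanolic acid by -0.40 (-1.30 to 0.40). Across digits 3 pairs have related structures. Paeoniflorin and Albiflorin are isomeric monoterpene glycosides, and they differed by -0.71 (95% interval -1.53 to -0.05, stratified exact permutation p = 0.024, adjusted p = 0.084). Hederagenin is oleanolic acid with an added hydroxyl group, and the log2 difference between them was -0.71 (-1.56 to 0.16). Gallic acid is benzoic acid with added hydroxyl groups, and it differed from Benzoic acid by -0.87 (-1.87 to 0.16). The interval leaves room for more than a 2-fold difference in either direction for Hederagenin against Paeonol, and for a share more than 2-fold lower, but not higher, in the first of each pair for Catechin against Gallic acid and for 4 of the other pairs.

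Gene by gene at 10 µM, edgeR called 0 of the 18 mitochondrial genes tested in any of the 15 comparisons of batch 2, and so did DESeq2. MT-ND4L with Hederagenin had the only unadjusted edgeR p under 0.05, 0.0394. Fits of only the groups compared tested 16 mitochondrial genes against vehicle. They called 6 for Albiflorin (5 higher, 1 lower), 4 for Hederagenin (all lower), 1 for Benzoic acid (higher) and 1 for Oleanolic acid (lower). The share of all genes called in those fits is not given here, so these counts cannot be set against it. The shares that follow are from the main fits. The share of all 18324 genes called against vehicle was 0.0382% with Albiflorin, 0.0273% with Benzoic acid, 0.0655% with Catechin, 13.5% with Gallic acid, 2.42% with Hederagenin, 0.126% with Paeonol, 0.191% with Paeoniflorin and 4.45% with Oleanolic acid. Between ingredients it was 0% for Albiflorin against Benzoic acid, 0.677% for Catechin against Gallic acid, 1.03% for Hederagenin against Paeonol, 2.59% for Paeoniflorin against Oleanolic acid, 0.0109% for Hederagenin against Oleanolic acid, 8.7% for Gallic acid against Benzoic acid and 0% for Paeoniflorin against Albiflorin. Median log2 differences of the mitochondrial genes from the vehicle were 0.05 with Albiflorin, 0.03 with Benzoic acid, -0.94 with Catechin, -0.83 with Gallic acid, -0.91 with Hederagenin, -0.86 with Paeonol, -0.59 with Paeoniflorin and -0.52 with Oleanolic acid, where the median of all genes lay between 0.00 and 0.02.

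The standard errors were too wide for these differences to pass. MT-ND4 was at 18000, 19600 and 20100 CPM in the vehicle of batch 2 and at 1590, 27300 and 2230 CPM with Gallic acid at 10 µM, a log2 difference of -0.89 ± 1.0 (SE, n = 3 a group, edgeR adjusted p = 0.537). MT-RNR2 was at 27500, 27600 and 26800 CPM in the vehicle and 9320, 34800 and 10900 CPM with Gallic acid, a log2 difference of -0.57 ± 0.57 (edgeR adjusted p = 0.478). Replicate 2 lay above the vehicle in both genes and its partners far below. Without that replicate 11 of 19 mitochondrial genes were called lower with Gallic acid than with the vehicle, where 39% of all genes were called in either direction, and 13 of 19 lower than with Benzoic acid, where 38.1% were. With Hederagenin at 10 µM 15 of the 18 genes tested lay wholly below the vehicle libraries, where 19.1% of all genes did. MT-ND4 differed by -1.19 ± 1.0 in that comparison and MT-RNR2 by -0.69 ± 0.57 (SE, log2, edgeR adjusted p = 0.627 and 0.616).

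Libraries of batch 2 with a low mitochondrial share also had another mix of mitochondrial RNA. The rRNAs made up 18.5% to 19.8% of mitochondrial counts with the vehicle and 16.1% to 43.2% over the batch. They made up 40.8% in Catechin 2 µM replicate 1 (share 0.822%), 43.2% in Paeoniflorin 2 µM replicate 1 (share 1.39%) and 37.5% in Benzoic acid 2 µM replicate 3 (share 3.09%), but 17.9% in Gallic acid 10 µM replicate 2 (share 18.9%). Over the 75 libraries the rRNA part and the share were related with Pearson's r = -0.92 and Spearman's rho = -0.83 (each with permutation p = 1e-05, the smallest that the resamples can give, and an adjusted p of 2.84e-05 over 44 relations), and r was -0.91 without the 2 libraries farthest from the median share. Spearman's rho within code digits was -0.55 for digit 6, -0.97 for digit 7, -0.91 for digit 8 and -0.77 for digit 9. Both measures contain the mitochondrial counts and libraries of a group share their treatment, so the p-values describe these libraries only. In batch 1 the relation was not detectable (r = -0.27, permutation p = 0.232, and rho = -0.22, permutation p = 0.346, over 21 libraries).

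**Figure D4:**
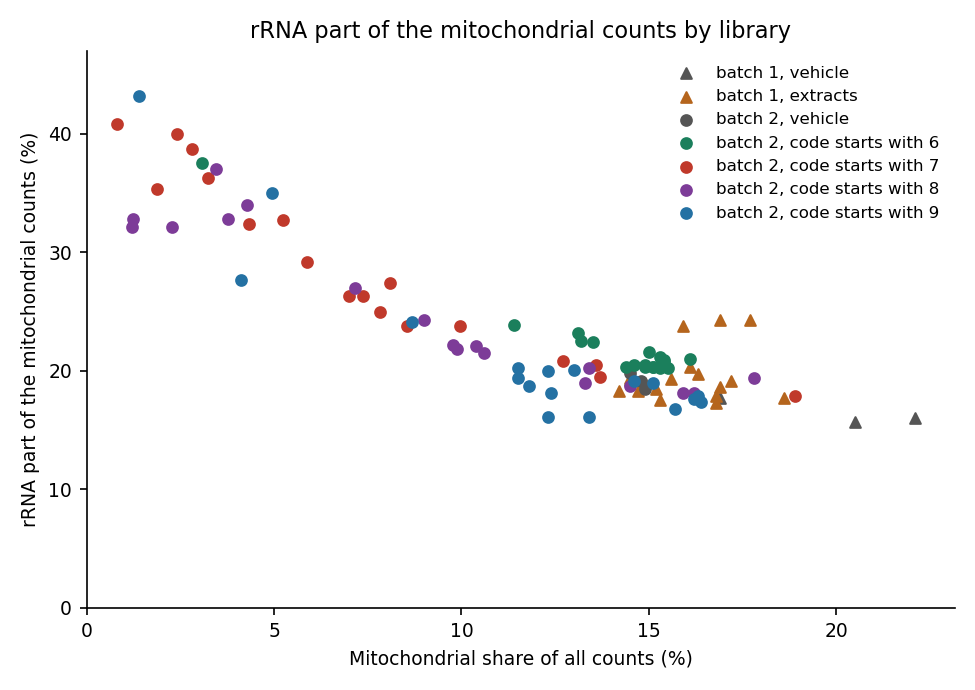
Part of the mitochondrial counts that fell to the 2 rRNAs (vertical axis, percent) against the mitochondrial share of all counts (horizontal axis, percent), with 1 point for each of the 96 libraries, marked by batch and code digit. In batch 2 the rRNA part runs from 16.1% to 43.2% and is highest where the share is lowest, while libraries of batch 1 lie between 15.7% and 24.3%.

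The rRNAs were not alone in this. The slope of a gene's log2 level on the log2 share over the libraries of batch 2 would be 1 for a gene that keeps a constant part of the mitochondrial counts. The genes that followed the share least steeply were MT-RNR2 with a slope of 0.68, MT-ND6 with 0.73, MT-RNR1 with 0.78, MT-ND4L with 0.84, MT-ND3 with 0.86 and MT-ND5 with 0.90. MT-CO2, MT-CO1, MT-ND1 and MT-ATP8 lay between 1.04 and 1.10. The steepest were MT-CYB with 1.21, MT-ND2 with 1.23, MT-CO3 with 1.28, MT-ND4 with 1.31 and MT-ATP6 with 1.32. In Catechin 2 µM replicate 1, the library of lowest share, MT-RNR2 was at 3020 CPM, MT-ND6 at 216, MT-ATP6 at 186 and MT-ND4 at 424 CPM. In the vehicle of batch 2 their means were 27300, 1900, 9970 and 19200 CPM, so MT-ND6, far below MT-ATP6 in the vehicle, stood level with it in that library. MT-ND6 and the rRNAs therefore took a larger part of the mitochondrial counts at low share (rho of the MT-ND6 part with the share -0.75), and MT-ND4 a smaller one (rho 0.87). Over the 15 genes the slope did not follow gene length (rho 0.04) or GC content (rho 0.31) closely, which is given as a description since neighbouring genes share precursors.

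**Figure D5:**
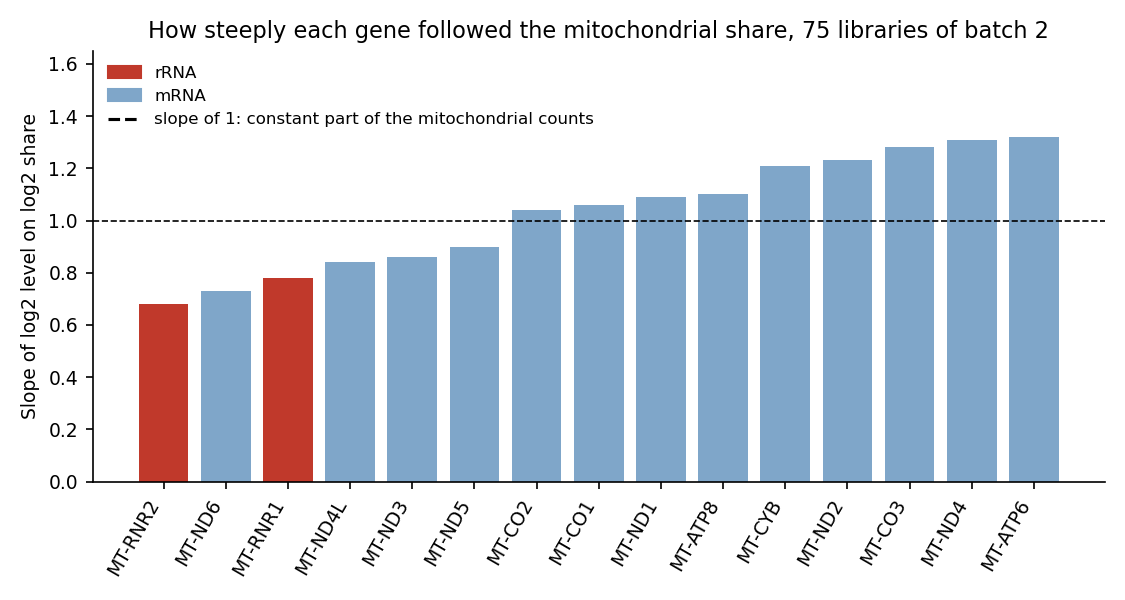
Slope of each gene's log2 level on the log2 mitochondrial share over the 75 libraries of batch 2 (vertical axis), for the 15 mRNA and rRNA genes in order of slope, with a dashed line at 1. The 2 rRNAs and MT-ND6, the mRNA of the minus strand, have the lowest slopes, 0.68 to 0.78, and MT-ATP6 has the highest, 1.32.

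Other measures of the libraries moved with the share in batch 2. Libraries with fewer counts in all had a lower share (Pearson's r = 0.63, Spearman's rho = 0.64, each with permutation p = 1e-05 and adjusted p = 2.84e-05, and r = 0.60 without the 2 farthest libraries), with rho between 0.64 and 0.81 within the 4 code digits. The total itself contains the mitochondrial counts, and the relation to nuclear counts alone was not tested. Libraries of a group also share their treatment, so the p-values of this paragraph describe these libraries only. The nuclear-encoded respiratory chain subunits moved the other way, with a summed level that was higher in CPM of nuclear counts where the mitochondrial share was lower (r = -0.64, rho = -0.69, same p-values, r = -0.70 without the 2 farthest). The summed levels of the mitochondrial ribosomal proteins (r = -0.73, rho = -0.77, same p-values) did so too. So did the sum of the epithelial markers (r = -0.83, rho = -0.77, same p-values), which are not mitochondrial. Single genes of these lists went both ways. Their rho ran from -0.92 to 0.87 for the respiratory chain (median -0.49) and from -0.93 to 0.88 for the mitochondrial ribosome (median -0.48). For 4 epithelial genes it ran from -0.87 to 0.83 (median -0.75). For the fibroblast list r was -0.37 (permutation p = 0.00107, adjusted p = 0.00277) and rho -0.81, and for the short or unpolyadenylated RNAs r was -0.30 (permutation p = 0.00674, adjusted p = 0.0152) and rho -0.71. The 4 libraries named above stand apart on both lists. Without them, in values added after seeing the data, r was -0.74 and rho -0.80 for the fibroblast list and r was -0.73 and rho -0.67 for the short RNAs over 71 libraries (each with permutation p = 1e-05, the smallest the resamples can give, and adjusted p = 1e-05 over these 4 coefficients; r without the 2 farthest libraries -0.76 and -0.75). The part of depth or of any of these in the spread of the share was not tested.

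Single nuclear genes followed the share closely. Among 9851 nuclear genes at a mean of 10 CPM or more, the most like it over the 75 libraries of batch 2 were WBP11 with rho 0.98, MTND2P28 with 0.97, SLC25A23 with 0.97, MAPK1IP1L with 0.97 and DAZAP2 with 0.96. MTND2P28 is a nuclear copy of MT-ND2, with which it can share reads. WBP11, a splicing factor, ranged from 58.9 to 227 CPM of nuclear counts. The least like were ADAM15 and IFRD2 with rho -0.96 and TMED9, PEX5 and NNMT with -0.95. NNMT, which methylates nicotinamide, ranged from 125 to 655 CPM of nuclear counts. In all, 1019 genes had a rho above 0.8 and 844 one below -0.8, so these names stand for a broad pattern. In 5 bins of GC content of equal size, from low to high, the median rho of nuclear genes was 0.51, 0.49, 0.38, 0.03 and -0.46. Batch 1 had fewer such genes among its 9995, 68 above 0.8 and 92 below -0.8, with YY1AP1 at 0.93 and GORASP2 at 0.91 at one end and TWF2 and THAP11 at -0.94 at the other. Its median rho in such bins lay between -0.15 and -0.06.

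The vehicle groups of the 2 batches were also set side by side. Their mitochondrial shares did not overlap, with a log2 difference of 0.42 in favour of batch 1 (exact permutation p = 0.1, the smallest that 3 against 3 libraries allow, adjusted p = 0.191). The rRNA part was 16.5% ± 1.0 in batch 1 and 19.1% ± 0.65 in batch 2 (SD, n = 3), also without overlap. Batches were fitted apart throughout, and no treated group of batch 1 was tested against one of batch 2.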

How the data were processed

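RNA of 96 A549 libraries was made into sequencing libraries with a directional MGI kit, per the labels' protocols. Per the submitters' processing notes, the authors used FastQC, Trim Galore, STAR, RSEM 1.3.3 and the hg38 (GRCh38) build. The selection of RNA, the annotation and RSEM's strand setting were not given in the sources used here. The deposited values are RSEM's expected counts per gene, of which 89.2% were whole numbers. They were rounded to whole numbers for the tests. RSEM divides reads that fit several genes, which touches overlapping mitochondrial genes and their nuclear copies, and reads of the 2 strands may not be told apart.

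Each batch was fitted apart with edgeR 4.0.16 (R 4.3.3) on all its libraries, with TMM scaling, filterByExpr, the quasi-likelihood F-test and Benjamini-Hochberg adjustment over all genes tested, called at an adjusted p under 0.05. CPM of single genes is TMM-scaled, levels per kilobase and shares are not. The residual degrees of freedom were 14 in batch 1 and 50 in batch 2. The SE of an edgeR log2 difference is the size of that difference divided by the square root of its F statistic. It rests on the spread over all groups of the batch, not on the 2 groups compared alone. On simulated data with 16540 genes for the ethanol extract at 500 µg/mL, 98% of genes changed by 0.5 on the log2 scale were recovered. On 17981 genes for Paeonol at 10 µM 27% of those and 87% of genes changed by 1 were. The changed genes were drawn at random from the more abundant ones, and each gene was simulated independently. Mitochondrial genes of batch 2 moved together between libraries and had wide standard errors, so these rates do not hold for them. The mitochondrial share is the percent of all counts in these genes. Its tests compare mean log2 shares, exactly where a group had under 10 libraries and otherwise with 100000 resamples, adjusted over 21 tests. Intervals of ingredient pairs invert the exact test within doses. Relations across libraries used 100000 resamples and were adjusted over 44 relations.

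Every mitochondrial gene with a count could be named. From each pathway list up to 3 genes with the smallest adjusted p in each direction were eligible at 500 µg/mL of each extract, and for likeness the 5 highest and 5 lowest nuclear genes. The members and lists were chosen with earlier results of these data known. Alternatives were DESeq2 1.42.0, no filter, scaling on nuclear genes, only the groups compared, replicate numbers as a block, leaving out libraries, and other forms of the share. Coordinates and sequences are from GENCODE v29 on GRCh38.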

Additional observations from a re-analysis of the deposited data

Results flagged for a closer look

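In 3 of 10 sets of 9 libraries of an ingredient or extract, the library with the lowest mitochondrial share stood apart from the other 8 by Dixon's criterion at 95%, which chance alone meets in about 1 in 20 sets. They were Albiflorin 2 µM replicate 1 at 11.4%, Benzoic acid 2 µM replicate 3 at 3.09% and Oleanolic acid 10 µM replicate 3 at 4.11%. The rRNA part of the mitochondrial counts was 23.9%, 37.5% and 27.7% in these 3 libraries, the highest of the 9 libraries of each ingredient.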

How the results depend on the processing

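No log2 change of a mitochondrial gene that was called changed sign under an alternative, and scaling on nuclear genes alone changed no count by more than 1.5 times. The 7 genes called for the ethanol extract at 20 µg/mL became 13 with no filter on low counts, 13 with the replicate number as a block and 1 in a fit of only the groups compared. The 5 genes that differed between the extracts at 500 µg/mL became 3 in DESeq2, 13 with no filter, 10 with the replicate block and 10 in the fit of only the groups compared. At 100 µg/mL the 0 became 2, 1 and 1 (no filter, replicate block, only the groups compared), and at 20 µg/mL 2 with no filter. Between 500 and 20 µg/mL the 6 genes of the ethanol extract became 12 with no filter and 11 with the replicate block, and the 0 of the water extract 1 with no filter. In fits of only the groups compared the 0 genes became 6 for Albiflorin, 1 for Benzoic acid, 4 for Hederagenin and 1 for Oleanolic acid at 10 µM. The share of all genes called in these alternative fits is not given here, so none of these counts can be set against it. The lower share with the water extract was -0.44 (log2) as a ratio to the nuclear-encoded respiratory chain genes and -0.35 under the replicate block, with adjusted p-values of 0.0691 and 0.0684. The difference of 0.09 between extracts passed under the block (adjusted p = 0.0409). The causes of these changes were not tested. In no comparison did all 3 same-numbered pairs of libraries correlate above 0.1 in their deviations over genes, so the numbers were not taken as pairs. Hederagenin against Oleanolic acid came nearest, with 0.246, 0.0987 and 0.412, and replicate 3 had the highest share in 7 of 7 groups of batch 1. The block changed no other call on a share and moved no other count by more than 1.5 times.

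Leaving out 1 library at a time, the mitochondrial genes called ranged from 12 to 14 at 500, 6 to 13 at 100 and 6 to 14 at 20 µg/mL of the water extract, and from 12 to 13, 6 to 12 and 0 to 13 for the ethanol extract. In the same order, 14% to 20.8%, 5.83% to 13.9% and 4.08% to 11.2% of all genes changed with the water extract. With the ethanol extract 64.9% to 66%, 11.1% to 17.1% and 3.51% to 8.28% did. The mitochondrial genes called ranged from 3 to 6 between the extracts at 500 µg/mL, 0 to 11 for Gallic acid against vehicle and 0 to 13 for Gallic acid against Benzoic acid. Of all genes 61.7% to 62.8%, 0.727% to 39% and 0.3% to 38.1% changed there. Leaving out a replicate number, the share difference ranged from -0.43 to -0.29 for the water extract, 0.82 to 1.40 between digits 6 and 7, and 0.46 to 1.38 between digits 6 and 8. Counting depth limits only the tRNAs: a count of 0 allows up to 0.191 CPM in the shallowest library.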
